A study of Mus musculus with 4 samples.

Results

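Cycling CD8 T cells of mouse melanoma were taken as the cell barcodes that held transcripts of the T cell receptor complex, of the CD8 beta chain and of genes used by dividing cells. Counts are UMIs, the molecular tags that stand for single captured transcripts. A barcode was a member where it had at least 200 genes, at most 10% mitochondrial UMIs, at least 2 UMIs of Cd3d, Cd3e and Cd3g together, at least 2 UMIs of Cd8b1, no UMI of Ncr1, at most 2 UMIs of C1qa, C1qb and Csf1r together, and at least 4 UMIs of Mki67, Top2a, Ube2c and Birc5 together. The rule found 329 of the 11270 deposited barcodes. The miR-155 TCKO library of day 9 gave 13 members and the wild-type (WT) library of day 9 gave 277, while the miR-155 TCKO library of day 12 gave 1 and the WT library of day 12 gave 38.

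The 4 libraries held live CD45-positive cells sorted from subcutaneous tumours of B16F10-OVA cells, a C57BL/6 mouse melanoma line that carries ovalbumin as a model antigen. The hosts were miR-155 T cell conditional knockout mice (miR-155 TCKO) or WT C57BL/6 mice, and the tumours were taken 9 or 12 days after injection. The tumours of more than 4 mice per group were pooled and equal numbers of sorted cells were loaded, so each genotype and day has 1 library, there are no replicates, and no difference between groups was tested. The labels name neither the Cre line that deletes miR-155 nor the preparation runs, so genotype, day and preparation cannot be told apart, and the mice keep miR-155 in cells other than T cells.

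A CD8 T cell that meets its antigen leaves rest, copies its DNA in S phase and separates the copies in G2 and M phase. Its daughters become effector cells that carry granzymes and perforin. Where antigen persists, as in tumours, such cells also carry PD-1 (Pdcd1) and other inhibitory receptors, and cells with the transcription factor TCF-1 (Tcf7) are known as the self-renewing pool behind them. The microRNA miR-155 is induced when T cells are activated, is cut from the transcript of Mir155hg, and is known to be needed for strong CD8 T cell responses.

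The targeted gene was read first. Mir155hg is a long non-coding RNA gene at chr16:84703167-84715245 on the plus strand of mm10. Cycling CD8 T cells held 0 Mir155hg UMIs in miR-155 TCKO day 9, against 50 UMIs in WT day 9, which is 8.04 CPM with a counting interval of 5.97 to 10.6 CPM. CPM is the number of UMIs of a gene per 1000000 UMIs summed over the cells named. At the WT level only 1.98 UMIs would be found among the few TCKO cells of day 9. Their 0, with a counting interval up to 15.0 CPM, therefore does not separate the genotypes. Non-cycling CD8 T cells differed at greater depth. They held 0 UMIs in TCKO day 9, with an interval up to 1.93 CPM, against 41 UMIs or 8.70 CPM in WT day 9. These cells also differed in activation, since 37 of 308 held Pdcd1 in TCKO day 9 and 341 of 449 in WT day 9. The part of activation, which induces miR-155, in this difference was not tested. At day 12 the cycling cells held 0 UMIs in TCKO and 7 UMIs in WT. Barcodes outside the CD8 T cells kept the transcript in TCKO tumours, at 1.23 CPM (interval 0.875 to 1.68) from 39 UMIs at day 9 and 5.04 CPM (4.07 to 6.18) from 93 UMIs at day 12. In WT tumours these barcodes held 2.47 CPM (1.62 to 3.62) from 26 UMIs at day 9 and 1.91 CPM (1.44 to 2.50) from 54 UMIs at day 12. The 3′ tags of Mir155hg may lie outside the deleted part. The mature microRNA, which a poly(A) library does not count, is shown because it is the molecule removed, and RefSeq places it at chr16:84714143-84714165 on the plus strand of GRCm38.p6. The capitals mark its seed, bases 2 to 8, which pairs with target transcripts.
mmu-miR-155-5p: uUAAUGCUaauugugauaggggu

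The cells found by the rule carried other transcripts of CD8 T cells. Cd8a, the partner chain of Cd8b1, was present in 275 of 277 WT day 9 members. In TCKO day 9 it was present in 10 of 13, since 3 members had no Cd8a UMI. In WT day 12 it was absent from 3 of 38. The lone member of TCKO day 12 had 1 Cd8a UMI and 3 Cd8b1 UMIs beside 219 H2-Aa and 18 Lyz2 UMIs, transcripts of antigen-presenting and myeloid cells. Its identity as a CD8 T cell therefore rests on few UMIs, and TCKO day 12 gives values only.

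The 4 genes of the rule work in different steps of division. Mki67 coats mitotic chromosomes, Top2a untangles DNA, Ube2c loads ubiquitin for the anaphase-promoting complex, and Birc5 is a subunit of the chromosomal passenger complex. Promoters are shown because G2 and M phase genes and S phase genes are known to be switched by different short elements: the CHR element TTTGAA, bound by the MuvB complex, and E2F sites. RefSeq promoters of GRCm38.p6, running from 250 bases before to 50 after the gene start, were searched on both strands. Capitals mark TTTGAA, its variant TTTAAA, or 1 of the 4 E2F words TTTCCCGC, TTTGGCGC, TTTCGCGC and TTTGCCGC on either strand, and each sequence runs 5′ to 3′ along the gene's strand. The windows are chr11:99024140-99024439 (minus strand) for Top2a, chr2:164769679-164769978 (plus) for Ube2c, chr7:135716330-135716629 (minus) for Mki67, chr11:117848987-117849286 (plus) for Birc5, chr7:122159185-122159484 (plus) for the mitotic kinase gene Plk1, and chr1:128359656-128359955 (minus) for the replicative helicase gene Mcm6.
Top2a promoter: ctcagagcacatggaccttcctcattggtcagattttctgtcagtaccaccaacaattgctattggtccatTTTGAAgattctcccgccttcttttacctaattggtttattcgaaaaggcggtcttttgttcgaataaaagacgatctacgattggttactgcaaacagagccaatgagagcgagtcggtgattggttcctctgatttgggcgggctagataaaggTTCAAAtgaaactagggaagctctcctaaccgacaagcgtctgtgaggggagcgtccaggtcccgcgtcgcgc
Ube2c promoter: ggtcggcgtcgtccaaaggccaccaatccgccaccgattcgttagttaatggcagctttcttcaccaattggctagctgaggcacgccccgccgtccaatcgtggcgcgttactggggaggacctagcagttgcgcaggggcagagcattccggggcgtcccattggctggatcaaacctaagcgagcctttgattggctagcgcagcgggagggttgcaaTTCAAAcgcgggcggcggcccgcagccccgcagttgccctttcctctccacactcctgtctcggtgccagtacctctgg
Mki67 promoter: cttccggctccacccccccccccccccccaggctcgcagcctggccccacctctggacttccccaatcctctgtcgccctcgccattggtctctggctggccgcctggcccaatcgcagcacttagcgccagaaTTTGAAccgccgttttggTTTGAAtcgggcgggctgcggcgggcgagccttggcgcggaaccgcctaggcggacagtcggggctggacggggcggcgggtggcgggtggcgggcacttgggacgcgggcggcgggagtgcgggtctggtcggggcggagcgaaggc
Birc5 promoter: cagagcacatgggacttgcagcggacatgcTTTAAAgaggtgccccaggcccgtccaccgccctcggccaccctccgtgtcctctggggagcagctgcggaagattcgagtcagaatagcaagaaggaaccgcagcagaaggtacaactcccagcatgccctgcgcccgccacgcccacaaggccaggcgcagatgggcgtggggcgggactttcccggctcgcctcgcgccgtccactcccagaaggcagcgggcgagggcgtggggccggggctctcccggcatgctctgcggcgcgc
Plk1 promoter: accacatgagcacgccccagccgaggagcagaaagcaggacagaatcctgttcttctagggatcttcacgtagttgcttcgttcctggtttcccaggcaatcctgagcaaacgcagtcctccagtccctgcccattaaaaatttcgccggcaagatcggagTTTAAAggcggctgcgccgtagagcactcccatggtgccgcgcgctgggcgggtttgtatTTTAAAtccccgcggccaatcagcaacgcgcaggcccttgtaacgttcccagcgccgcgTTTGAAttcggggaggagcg
Mcm6 promoter: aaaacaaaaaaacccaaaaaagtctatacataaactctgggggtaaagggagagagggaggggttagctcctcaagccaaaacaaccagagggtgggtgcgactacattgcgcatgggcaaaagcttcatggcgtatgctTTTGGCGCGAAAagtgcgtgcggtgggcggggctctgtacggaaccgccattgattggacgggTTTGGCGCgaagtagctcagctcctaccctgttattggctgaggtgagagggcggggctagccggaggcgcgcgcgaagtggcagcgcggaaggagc

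TTTGAA was found in the Top2a, Ube2c, Mki67 and Plk1 windows, while the Birc5 window held TTTAAA instead. The Mcm6 window held 3 E2F matches, of which 2 overlap in 1 run of capitals, and no TTTGAA. Over the list of G2 and M phase genes, which leaves out the 4 genes of the rule, TTTGAA was in 27 of the 37 genes with a promoter in the table (73.0%), against 18.1% of all 27025 promoters. The E2F words were in 1 of these 37 (2.70%), against 2.32% of all promoters. Over the S phase list the order was the other way, with E2F words in 10 of 30 genes (33.3%) and TTTGAA in 4 of 30 (13.3%). CCAAT, a box that often stands beside CHR elements, was in 28 of 37 G2 and M phase promoters, in 17 of 30 S phase promoters and in 37.9% of all promoters. Among the cytotoxic genes, which are described further on, TTTGAA was in 3 of 22. These are matches of letters and not measured binding.

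Cycling cells were a large share of CD8 T cells in WT tumours of day 9 and a small one in TCKO tumours. At day 9 they were 13 of 321 CD8 T cells in TCKO, or 4.05% with a Clopper-Pearson 95% interval of 2.17% to 6.83%, against 277 of 726 in WT, or 38.2% with an interval of 34.6% to 41.8%. The TCKO share was 0.106 of the WT share, with a counting interval of 0.0558 to 0.185. At day 12 they were 1 of 46 CD8 T cells in TCKO, or 2.17%, against 38 of 215 in WT, or 17.7% with an interval of 12.8% to 23.4%. The WT share of day 12 was thus 0.463 of the WT share of day 9, with an interval of 0.321 to 0.652. These intervals, like all others given, cover counting error only and not the spread between mice, pools or cells. The numbers describe what the rule selects, and a share of a sorted pool depends on the other cells in it. Of the non-cycling CD8 T cells in these shares, 37 of 308 held Pdcd1 in TCKO day 9, against 341 of 449 in WT day 9. Of the cycling cells, which were deeper, 11 of 13 and 264 of 277 held it. The share among cells with Pdcd1 was not taken. CD8 T cells themselves were 321 barcodes in TCKO and 726 in WT at day 9, and 46 in TCKO and 215 in WT at day 12, from libraries of 1778 to 3749 barcodes.

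A minimum of UMIs is met more easily by deep cells, and depth differed between the groups. Cycling cells had a median of 20161 UMIs in TCKO day 9, 21293 in WT day 9 and 10089 in WT day 12. Non-cycling CD8 T cells of the same libraries, which met the same rule with under 4 UMIs of the 4 genes, had medians of 5010, 9075 and 4238 UMIs. Cycling cells thus held 4.02, 2.35 and 2.38 times the UMIs of non-cycling ones. Larger cells with more RNA and barcodes with a pair of cells cannot be told apart by this count alone. After each barcode was thinned to 3000 UMIs and the whole rule, CD8 minimum included, was applied again, the share was 1.21% in TCKO day 9 (3 of 247) against 16.0% in WT day 9 (95 of 593). The same step gave 2.5% in TCKO day 12 (1 of 40) against 12.8% in WT day 12 (21 of 164). The upper limits of the rule are met more easily by a thinned barcode, so not each of these cells is a member by all its UMIs: 3 of the 3 in TCKO day 9 were, 87 of the 95 in WT day 9, 0 of the 1 in TCKO day 12 and 19 of the 21 in WT day 12. At equal depth the genotypes of day 9 stayed apart, whereas the WT day 12 share was 0.799 of the WT day 9 share in place of 0.463. At 3000 UMIs, 3 CD8 T cells of TCKO day 9, 5 of TCKO day 12 and 32 of WT day 12 were too shallow to be kept.

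**Figure D1:**
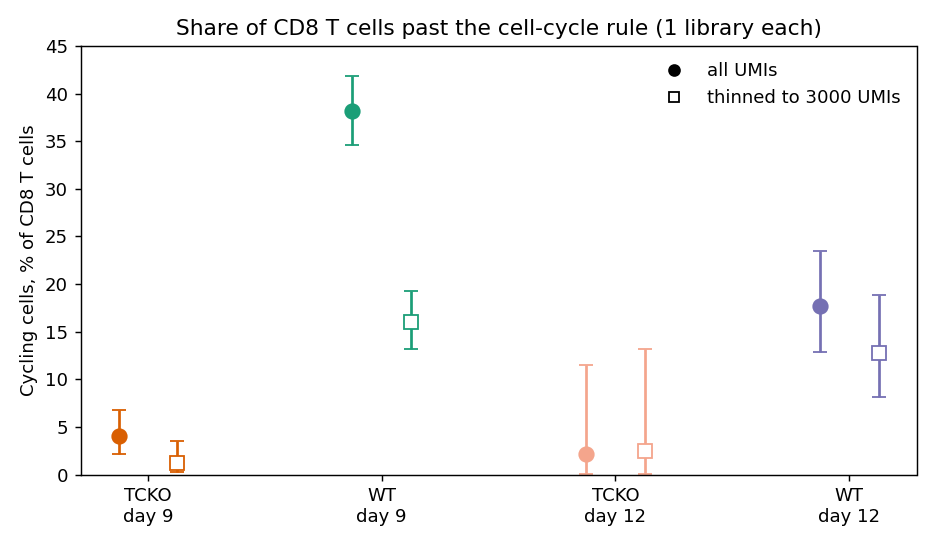
Cycling cells as a percent of CD8 T cells (vertical axis) in each of the 4 libraries, from all UMIs (filled) and after thinning to 3000 UMIs per barcode (open), with exact 95% binomial intervals. WT day 9 stands at 38.2% from all UMIs and 16.0% after thinning, against 4.05% and 1.21% in miR-155 TCKO day 9.

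Cycling lymphocytes of another kind were counted in the same way. Cycling natural killer (NK) cells, which met the same minimum of 4 UMIs together with Ncr1 and without Cd3 transcripts, were 4 of 208 NK cells in TCKO day 9 against 5 of 128 in WT day 9. At day 12 they were 19 of 237 (8.02%) in TCKO against 38 of 379 (10.0%) in WT.

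The members were chosen by the UMIs of the rule's genes, so the levels of these genes, and the share of cells past the minimum, are given as a description. In WT day 9, members held 169 CPM of Mki67, 330 CPM of Top2a, 442 CPM of Ube2c and 410 CPM of Birc5, against 8.91, 21.9, 24.2 and 14.2 CPM in non-cycling CD8 T cells. In TCKO day 9 the members held 85.3 CPM of Mki67, 240 CPM of Top2a, 284 CPM of Ube2c and 309 CPM of Birc5. Most members lay far from the threshold, with 208 of the 277 WT day 9 members at 10 or more UMIs of the 4 genes. At the threshold itself, the 18 WT day 9 cells with 4 UMIs held 3314 CPM of the S phase list and 2964 CPM of the G2 and M phase list. The 39 cells just outside, with 3 UMIs, held 2236 and 2388 CPM of these lists, and the 254 cells with 0 UMIs held 959 and 1473 CPM. Cells just outside the rule therefore already held more of both lists than cells with none of the 4 transcripts.

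Genes of the cell cycle beyond the rule were higher as well. In WT day 9, 6.4% of the 9951 genes with at least 20 UMIs over both groups of cells were at least 2-fold higher in cycling than in non-cycling CD8 T cells and 5.37% were at least 2-fold lower, and the median log2 ratio of all of them was -0.02. Of the G2 and M phase list 41 of 43 were at least 2-fold higher, with a median log2 ratio of 4.34, and of the S phase list 33 of 39, with a median of 1.65. Plk1, which drives entry into mitosis, held 85.1 CPM in cycling cells and 0.424 CPM in non-cycling ones. Cdk1, the mitotic kinase, held 217 CPM against 11.2 CPM, and Rrm2, the subunit of ribonucleotide reductase that is made in S phase, held 252 CPM against 18.2 CPM. An exception was Pttg1, the securin gene, with a log2 ratio of -0.16. Of 37 replication-dependent histone genes 31 were at least 2-fold higher, with a median of 2.54, or 2.47 where 3 genes at 0 in non-cycling cells were set to 3 UMIs, although these transcripts mostly lack the poly(A) tail that the library captures. Of the 12 genes outside the lists that led the ranking, Ska1, a kinetochore gene and the highest, had 321 UMIs in cycling cells against 3 in non-cycling cells, Spc25, of the same structure, 432 against 9, and Neil3, a DNA glycosylase of repair, 220 against 5.

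Members differed in their place in the cycle. The S share, which is the S phase list's part of the UMIs of the S phase and the G2 and M phase lists together, ran from 2.14% to 73.9% over the WT day 9 members with a median of 33.3%, with no gap between an S side and a G2 and M side. It had a median of 39.4% in TCKO day 9 and of 25.8% in WT day 12. Taking the WT day 9 median as a dividing line, 8 of 13 members (61.5%) lay on the S side in TCKO day 9, against 138 of 277 in WT day 9. In WT day 12 it was 15 of 38 (39.5%, with an interval of 24.0% to 56.6%). The interval of the TCKO share ran from 31.6% to 86.1% and covers the WT share. Of the WT day 9 members 29 lay within 5 percentage points of the line, so the sides are ranges and not types of cell.

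**Figure D2:**
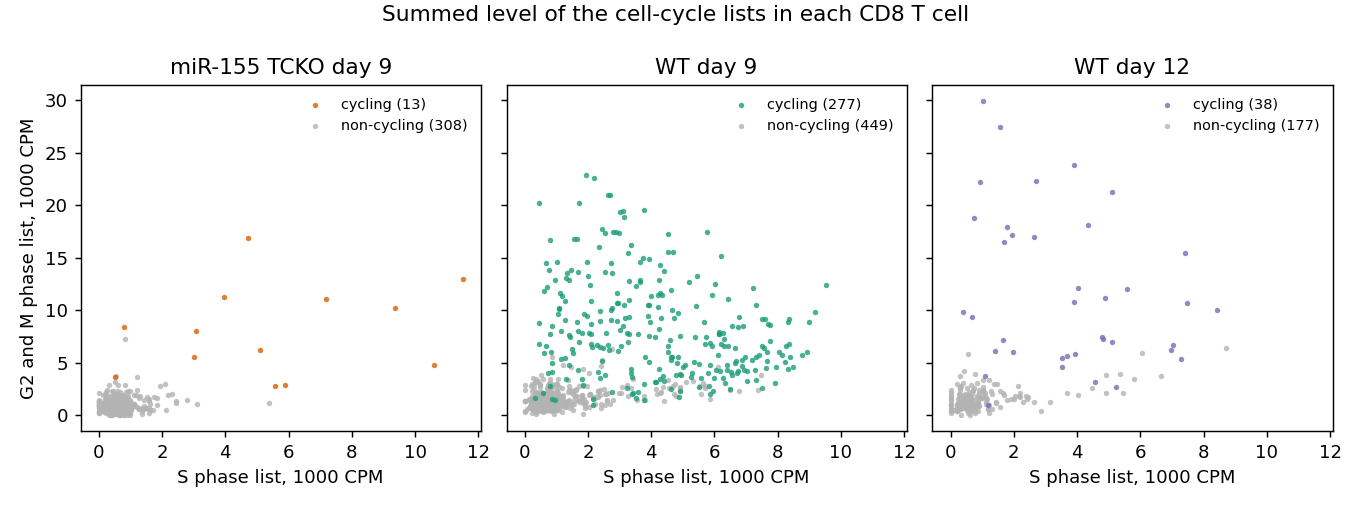
Summed S phase list (horizontal axis, 1000 CPM) against summed G2 and M phase list (vertical axis, 1000 CPM) for each CD8 T cell of miR-155 TCKO day 9, WT day 9 and WT day 12, with cycling and non-cycling cells marked apart. The 277 WT day 9 members fill a continuous range of S shares from 2.14% to 73.9%.

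Within the WT day 9 members, the S side against the G2 and M side was a comparison at similar depth, with medians of 22133 and 20104 UMIs. Of 8970 genes 3.38% were at least 2-fold higher on the S side and 2.41% at least 2-fold lower. Of 26 cytotoxic genes 4 were at least 2-fold higher there and none lower, with a median log2 ratio of -0.03. Xcl1 held 198 against 95.1 CPM, but 1 cell held 312 of its 918 UMIs, more than the 289 of the whole G2 and M side. Klrg1 held 24.2 against 8.88 CPM and Gzme 18.3 against 8.88 CPM, while the fourth, Gzmd, had 83.4% of its UMIs in 1 cell. Smaller differences with counting intervals clear of 0 ran both ways, with Gzmc at 0.60, Ccl3 at 0.51 and Ifng at 0.40, and Gzmb at -0.15. Of 14 inhibitory receptor genes 1, Cd101, was at least 2-fold lower on the S side and none higher, with a median of -0.13, and Havcr2 was at -0.48 (interval -0.73 to -0.23). Pdcd1 held 378 CPM on the S side and 385 CPM on the G2 and M side, with a log2 ratio of -0.03 and a counting interval of -0.15 to 0.09. Of 24 genes of nucleotide synthesis 4 were at least 2-fold higher on the S side and none lower, with a median of 0.66. Dctpp1, which removes faulty deoxynucleotides, held 229 against 131 CPM. Of 18 genes of the type I interferon response 3 were at least 2-fold lower there and none higher, with a median of -0.47: Ifit1 had 35 UMIs on the S side and 72 UMIs on the G2 and M side, a log2 ratio of -1.10 with an interval of -1.73 to -0.50. Of 6 macrophage markers tested 2 were at least 2-fold lower as well, with a median of -0.61, and Lyz2 held 92.2 against 214 CPM. A single cell held 358 of the 945 Lyz2 UMIs of these members, more than the 293 of the whole S side. The markers together were alike, at 1700 CPM on the S side and 1714 CPM on the G2 and M side, of which Cd74 made 1331 and 1168 CPM. The part of such RNA in the interferon difference was not tested.

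What the cycling cells carried besides the cell cycle was read against all non-cycling CD8 T cells and against the non-cycling cells with at least 1 Pdcd1 UMI, called PD-1 positive, which were 37 cells in TCKO day 9, 341 in WT day 9 and 69 in WT day 12. In the second comparison 6.7% of 9810 genes in WT day 9 were at least 2-fold higher in cycling cells and 4.26% at least 2-fold lower, with a median log2 ratio of -0.00. The non-cycling cells include resting and naive cells, so the PD-1 positive cells are the closer comparison for antigen-experienced cells.

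**Figure D3:**
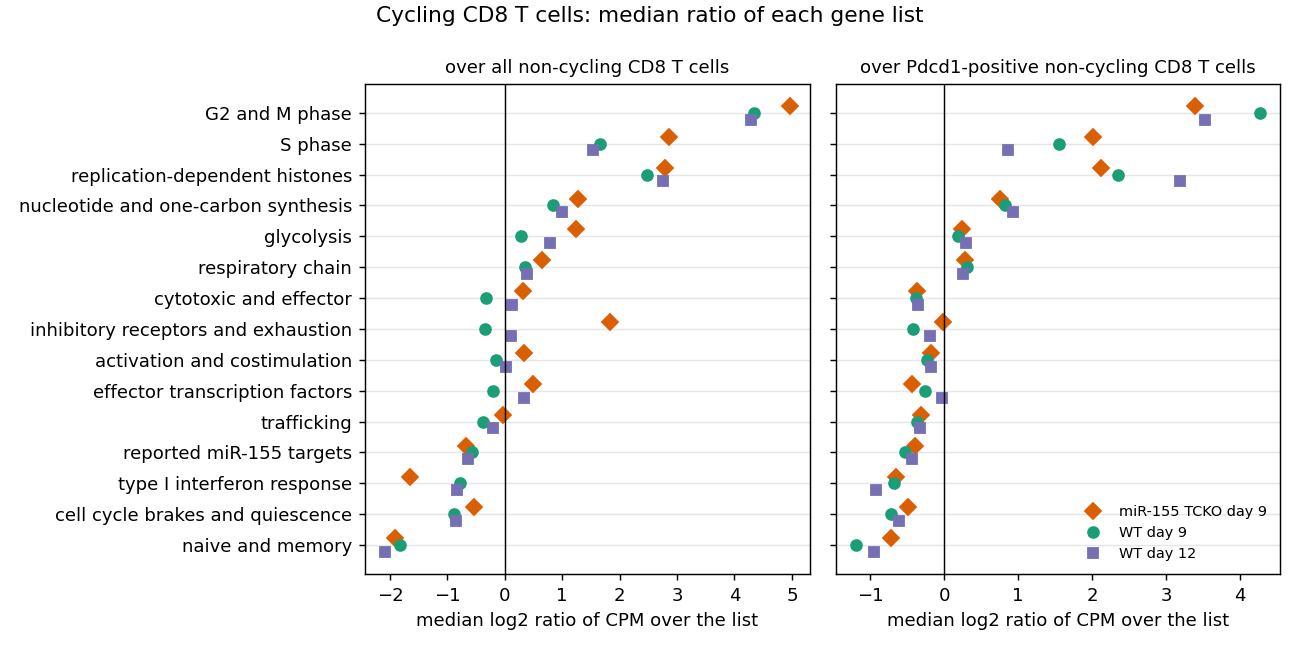
Median log2 ratio of cycling over non-cycling and over PD-1 positive non-cycling CD8 T cells (axis) for gene lists, in miR-155 TCKO day 9, WT day 9 and WT day 12. The S phase, G2 and M phase and histone lists lie above 0 in all 3 libraries with a side at 0 set to 3 UMIs, and the naive and memory list (-1.83 against all non-cycling cells in WT day 9) and the type I interferon list (-0.78) lie below it.

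The genes of naive and memory T cells were lower in cycling cells in each of the 3 libraries. In WT day 9, 13 of 17 were at least 2-fold lower than in non-cycling cells, none was 2-fold higher, and the median log2 ratio was -1.83. Tcf7 held 5.15 CPM in cycling cells, against 26.9 CPM in PD-1 positive and 47.5 CPM in all non-cycling cells, a log2 ratio of -2.39 (interval -3.0 to -1.80) against the PD-1 positive cells. Il7r, the receptor chain for the survival cytokine IL-7, held 7.56 CPM against 29.4 and 46.0 CPM, and Id3, a repressor linked to memory cells, had 4 UMIs against 22 and 52 UMIs. Against the PD-1 positive cells 9 of 16 genes of the list were still at least 2-fold lower, while Lef1, a partner of TCF-1, was at a log2 ratio of 0.15 with an interval of -0.30 to 0.62. In WT day 12, where 10.8% of 5548 genes were at least 2-fold higher and 6.54% at least 2-fold lower against non-cycling cells, 12 of 14 were at least 2-fold lower. In TCKO day 9, where these shares were 16.3% and 15% of 6689 genes, 14 of 17 were. Against the 69 PD-1 positive cells of WT day 12, where 9.64% of 4421 genes were at least 2-fold higher in cycling cells and 4.98% lower, 4 of 9 were at least 2-fold lower, and Tcf7 was at -1.0 with an interval of -2.21 to 0.13, so that a difference was not detectable at this depth.

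Inhibitory receptors were present in cycling cells of WT tumours, at a lower summed level than in non-cycling PD-1 positive cells. The list summed to 1355 against 1929 CPM in WT day 9 and to 903 against 1435 CPM in WT day 12. In that comparison of WT day 12, 1 of 8 genes was at least 2-fold lower, beside 4.98% of all 4421 genes. None of 15 genes of the list was 2-fold different in either comparison in WT day 9, and the median was -0.34 against all non-cycling and -0.43 against PD-1 positive cells, which were chosen by Pdcd1, a gene of the list. Pdcd1 held 382 CPM in cycling and 430 CPM in all non-cycling cells, a log2 ratio of -0.17 (interval -0.26 to -0.09). Lag3, an inhibitory receptor for MHC class II, held 346 CPM against 582 CPM in PD-1 positive cells, a log2 ratio of -0.75, and Tox, a factor of the exhausted state, held 139 CPM against 194 CPM. Per cell the order turned round, since a cycling cell held more UMIs in all: Pdcd1 averaged 8.57 UMIs per cycling cell, with a median of 8, against 4.51 per non-cycling cell, with a median of 3. After thinning to 3000 UMIs, Pdcd1 was found in 62.1% of cycling cells and 61.2% of all non-cycling cells, against 1.86% of macrophage-rule barcodes, which should lack it. The macrophage rule asked for more than 2 UMIs of C1qa, C1qb and Csf1r and no Cd3 UMI, and these barcodes had a median of 9456 UMIs in WT day 9.

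Cytotoxic genes differed in both directions. Of 26 genes in WT day 9, 3 were at least 2-fold higher and 2 lower than in non-cycling cells, with a median of -0.32, and in WT day 12, 6 of 22 were higher and 2 lower, with a median of 0.12. Against PD-1 positive cells it was 3 higher and 1 lower of 26 in WT day 9, and 5 higher and 2 lower of 21 in WT day 12. Against the 37 PD-1 positive cells of TCKO day 9, where 8.98% of 3464 genes were at least 2-fold higher in cycling cells and 5.83% lower, 1 of 19 was higher and 8 were lower, each of the 8 with an interval clear of 0. Among these Ccl4 held 1965 against 5943 CPM and Ifng 309 against 2661 CPM, where 1 PD-1 positive cell held 58.6% and 68.3% of the UMIs of its group. Gzmb, the granzyme that starts apoptosis in target cells, held 2323 CPM in cycling cells against 1822 CPM in PD-1 positive and 1590 CPM in all non-cycling cells, a log2 ratio of 0.35 (interval 0.31 to 0.39) against the PD-1 positive cells. Gzmc held 242 CPM against 94.6 CPM in PD-1 positive cells, a ratio of 1.35. Gzmd was also 2-fold higher against all non-cycling cells, with a log2 ratio of 2.40, but 83.4% of its UMIs in cycling cells came from 1 cell. Per cell the median of Gzmb was 35 UMIs in cycling cells, 11 in PD-1 positive cells and 5 in all non-cycling cells. Gzmb was found in 88.1% of cycling and 65.5% of all non-cycling cells after thinning, against 8.70% of macrophage-rule barcodes.

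Ccl5, a chemokine gene of effector and memory T cells, was the reverse. It held 4051 CPM in cycling cells against 10525 CPM in PD-1 positive cells of WT day 9, 3731 against 11643 CPM in WT day 12 and 820 against 2753 CPM in TCKO day 9. The log2 ratios were -1.38, -1.64 and -1.75, each with an interval clear of 0, the widest being -1.97 to -1.53. Its UMIs per cell were also lower, with 90.9 in cycling and 123 in PD-1 positive cells of WT day 9. Ccl5 thus stood lower in cycling cells on both scales, whereas Gzmb stood higher on both. Prf1, for the pore-forming perforin, held 52.8 CPM in cycling and 70.7 CPM in PD-1 positive cells of WT day 9, and Nkg7, of cytotoxic granules, 3212 and 4264 CPM.

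**Figure D4:**
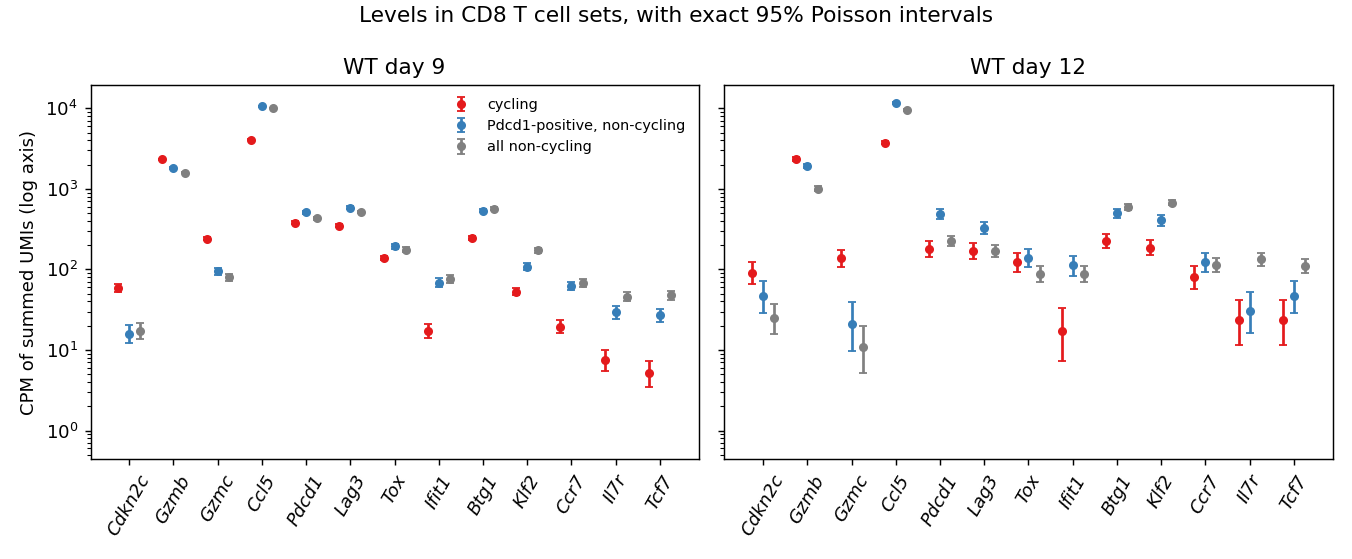
CPM (logarithmic axis) of 13 genes in cycling, PD-1 positive non-cycling and all non-cycling CD8 T cells of WT day 9 and WT day 12. Ccl5 and Btg1 are lower in cycling cells of both days, and Tcf7 is lower than in all non-cycling cells of both days, although its difference from PD-1 positive cells of day 12 was not detectable at this depth. Ccl5 is at 4051 CPM in cycling cells and 10525 CPM in PD-1 positive cells of WT day 9.

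Of 19 genes that hold cells at rest 5 were at least 2-fold lower in WT day 9 cycling cells and 1 at least 2-fold higher, with a median of -0.89 against non-cycling cells and -0.73 against PD-1 positive cells. Btg1, an antiproliferative gene of resting lymphocytes, held 247 CPM against 534 CPM in PD-1 positive cells, and Klf2, which keeps T cells quiescent and circulating, 53.1 against 108 CPM. Cdkn1b, the inhibitor p27 of cyclin-dependent kinases, held 12.2 against 30.2 CPM. The gene that was 2-fold higher was Cdkn2c, the inhibitor p18 of the kinases CDK4 and CDK6, with 58.9 CPM in cycling cells against 15.8 CPM in PD-1 positive cells, a log2 ratio of 1.89 (interval 1.5 to 2.30). Cdkn2c was also higher in cycling than in all non-cycling cells of WT day 12, at 91.3 against 24.9 CPM, and of TCKO day 9, at 73.1 against 12.0 CPM. Of 14 genes of the list in WT day 12, 6 were at least 2-fold lower than in non-cycling cells and 2 higher, the second being Cdkn1a, for the inhibitor p21, at 110 against 30.3 CPM. Of 17 in TCKO day 9, 7 were at least 2-fold lower and 3 higher, Cdkn2c, Cdkn2a and Rbl2, of which Cdkn2a rested on 8 UMIs, most of them in 1 cell. Against PD-1 positive cells of TCKO day 9, 1 of 10 was lower and 2 were higher, where Cdkn2d, for the inhibitor p19, held 106 against 44.3 CPM beside Cdkn2c.

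The type I interferon response was lower in cycling cells. In WT day 9, 7 of 18 genes were at least 2-fold lower than in non-cycling cells and none 2-fold higher, with a median of -0.78, and 5 were against PD-1 positive cells, with a median of -0.68. Ifit1, which binds foreign RNA, held 17.2 CPM against 68.7 CPM in PD-1 positive cells, a log2 ratio of -2.0 (interval -2.33 to -1.67), and Ifit3 17.1 against 55.8 CPM. In WT day 12 Ifit1 held 17.0 CPM against 112 CPM and Ifit3 17.0 against 152 CPM in PD-1 positive cells. In UMIs per cell the difference stayed in WT day 9, with 0.386 Ifit1 UMIs per cycling cell and 0.801 per PD-1 positive cell. Macrophage marker transcripts ran the same way, at 1707 CPM summed over 8 markers in cycling cells and 2822 CPM in all non-cycling cells of WT day 9, with none of the 8 at 0, and macrophage-rule barcodes carry interferon genes too: Isg15 was in 86.3% of them. The part of such RNA in the difference was not tested.

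Of 24 nucleotide synthesis genes 8 were at least 2-fold higher in WT day 9 cycling than in non-cycling cells and none lower, with a median of 0.84. Among them were Shmt1, of the folate cycle, at 25.4 CPM in cycling and 7.21 CPM in non-cycling cells, and Dctpp1 at 181 against 68.1 CPM. Slc7a5, an amino acid transporter, held 20.8 against 9.34 CPM and Tfrc, the receptor for iron-laden transferrin, 29.9 against 12.9 CPM. Glycolysis and respiratory chain genes differed less: none of 17 and none of 23 was 2-fold different in WT day 9, with medians of 0.28 and 0.35. In TCKO day 9, by contrast, 10 of 17 glycolysis genes were at least 2-fold higher in cycling than in non-cycling cells, with a median of 1.24. The non-cycling cells of that library were mostly without Pdcd1 (37 of 308 had it), and 0.22 was the median of all genes there. Against its PD-1 positive cells inhibitory receptors had a median of -0.01 over 9 genes and naive and memory genes one of -0.73 over 11.

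Most WT day 9 members carried effector and inhibitory transcripts in the same cell. Pdcd1 and Lag3 were both present in 260 of 277 (93.9%), with Havcr2 as well in 198 (71.5%) and with Gzmb as well in 253 (91.3%). Neither Pdcd1 nor Lag3 was found in 6. Macrophage-rule barcodes of that library held Pdcd1 in 3.73% and Lag3 in 4.35%. In WT day 12, at less than the depth of day 9, Pdcd1 and Lag3 were both present in 17 of 38 (44.7%) and neither in 7. In TCKO day 9 both were present in 11 of 13, and 7 of 13 held Gzmb as well.

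A minority of members held Tcf7. It was found in 22 of 277 WT day 9 members (7.94%), and 20 of these 22 also held Gzmb and 19 Pdcd1. Macrophage-rule barcodes, at less depth, held it in 1.86%. After the thinning used for Pdcd1 and Gzmb, Tcf7 was in 6 of 277 members (2.17%, interval 0.799% to 4.65%). It was then in 0 of 161 macrophage-rule barcodes, with an interval up to 2.27%. These intervals overlap, so at equal depth the share was not told apart from the background. In TCKO day 9 Tcf7 was found in 4 of 13 members by all UMIs, with Pdcd1 in 3 of them and Gzmb in none, and in WT day 12 in 7 of 38. Within WT day 9 the 22 members with Tcf7 differed from the 255 without it in some other naive and memory genes. Slamf6, a surface marker of the TCF-1 positive pool, held 24.8 against 7.61 CPM and Il7r 21.3 against 6.19 CPM. The log2 ratios were 1.71 and 1.78, with counting intervals clear of 0, and Ccr7 was at 0.90 (interval 0.11 to 1.62). Lef1 lay the other way, at 10.6 against 18.9 CPM, a ratio of -0.83 with an interval of -2.31 to 0.34. The members with Tcf7 held less Gzmb, at 1577 against 2397 CPM, and less Havcr2, at 49.7 against 90.7 CPM. The division genes of the rule, by which all members were chosen, lay between -0.31 (Mki67) and 0.03 (Ube2c) on the log2 scale. Median depth was 26013 UMIs with Tcf7 and 21278 without, and a cell is likelier to show a Tcf7 UMI at greater depth.

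Between the genotypes at day 9, 13 TCKO members with 246250 UMIs stood against 277 WT members with 6216734 UMIs. Of 9050 genes 8.51% were at least 2-fold higher in TCKO members and 16.1% at least 2-fold lower. Only 3.43% and 2.14% had counting intervals that were also clear of no change. The median log2 ratio of all genes was 0.01 as counted, and 0.13 where a side at 0 was set to 3 UMIs as a bound, which 732 genes needed. Scaling by TMM lowered every log2 ratio of this comparison by 0.18 and of WT day 12 over day 9 by 0.11. Against non-cycling cells it lowered them by 0.40 in TCKO day 9 and by 0.19 in WT day 12, and gave 522 genes at least 2-fold higher and 1494 lower in TCKO day 9 in place of 1087 and 1004, and 420 and 517 in WT day 12 in place of 597 and 363. The S phase list and the G2 and M phase list differed little between the genotypes. No S phase gene of 39 was 2-fold different, 5 of 43 G2 and M phase genes were at least 2-fold lower, and the medians were 0.34 and -0.10. Members of both genotypes had passed the same minimum of the rule, which partly sets this likeness. Replication-dependent histone genes were lower in TCKO members as a sum, at 974.6 CPM against 2053.8 CPM in WT members. The genes of the rule, which chose the members, are given as a description: each was lower in TCKO, with Mki67 at 85.3 against 169 CPM. Among members with at least 1 Cd8a UMI, Mki67 was at -0.90 and Ube2c at -0.43 on the log2 scale, with intervals clear of 0. Top2a was then at -0.30 (interval -0.72 to 0.09) and Birc5 at -0.28 (interval -0.65 to 0.06). Cdk1 held 207 CPM in TCKO and 217 CPM in WT members, and Pcna, the sliding clamp of replication, 317 CPM against 223 CPM.

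Several cytotoxic genes were lower in TCKO members. Of 26 genes 11 were at least 2-fold lower, 8 of them with an interval clear of no change, and 4 at least 2-fold higher. The median log2 ratio was -0.38 as counted and -0.20 with 5 genes at 0 in TCKO set to the bound. Gzmb held 642 CPM in TCKO against 2323 CPM in WT members, a log2 ratio of -1.86 with an interval of -2.09 to -1.63. Over the 13 TCKO members the Gzmb UMIs per cell were 83, 50, 14, 4, 3, 3 and 1, and 0 in the other 6, against a median of 35 over WT members, of which 268 of 277 held the transcript. Cells with and without Gzmb thus lay side by side in TCKO, and 1 cell held 52.5% of the UMIs. Ccl5 held 820 against 4051 CPM, a log2 ratio of -2.30 (interval -2.51 to -2.10), and was found in 10 of 13 TCKO and 274 of 277 WT members. Gzmk, of effector memory cells, was found in 0 of 13 TCKO members, with a counting interval up to 15.0 CPM. It held 129 CPM in WT members, where 172 of 277 had it. Macrophage-rule barcodes held Gzmb in 2.93% of TCKO and 23.0% of WT, Ccl5 in 33.0% and 65.8%, and Gzmk in 0.3% and 1.24%, at median depths of 9385 and 9456 UMIs. Nkg7, by contrast, held 3013 CPM in TCKO and 3212 CPM in WT members and was in 13 of 13 and 276 of 277.

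Of the inhibitory receptors, Pdcd1 and Lag3 did not follow Gzmb, while other genes of the list differed in both directions. Pdcd1 held 382 CPM in both genotypes, with a log2 ratio of 0.00 and an interval of -0.31 to 0.30, and was in 11 of 13 TCKO and 264 of 277 WT members. Its UMIs in the 13 TCKO members were 20, 20, 12, 9, 6, 6, 6, 5, 4, 4, 2, 0 and 0. Lag3 held 349 CPM against 346 CPM, a log2 ratio of 0.01 (interval -0.32 to 0.32). Over the list 3 of 14 genes were at least 2-fold higher and 4 lower, with a median of -0.20, beside 8.51% and 16.1% of all 9050 genes. Tox was lower, at 60.9 against 139 CPM, and Cd160, a coinhibitory receptor, higher, at 288 against 93.0 CPM, with 50.7% of its UMIs in 1 cell. Havcr2 was in 38.5% of TCKO and 74.7% of WT members. After thinning to 3000 UMIs it was in 15.4% (interval 1.92% to 45.4%) and 23.1%.

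Most naive and memory genes were higher in TCKO members, with 9 of 15 at least 2-fold higher, 6 of them with an interval clear of no change, and 2 lower. The median log2 ratio was 1.27 as counted and 1.74 with 1 gene at 0 set to the bound. The list as a sum was lower, at 1697 CPM in TCKO against 1968 CPM in WT members. Ly6c2, which made 1448 CPM of the WT sum, held 508 CPM in TCKO members. Tcf7 held 32.5 against 5.15 CPM, a log2 ratio of 2.66 (interval 1.33 to 3.81), from 8 UMIs in 4 TCKO members. Il7r held 44.7 against 7.56 CPM, from 11 UMIs in 6 members. Among members with at least 1 Cd8a UMI, Il7r had 5 UMIs in TCKO and a log2 ratio of 1.70 (interval 0.01 to 3.02). These levels rest on few molecules, and each interval is wide. Genes of the type I interferon response were lower, with 12 of 18 at least 2-fold lower, 9 with an interval clear of no change, and none 2-fold higher. Their median was -1.76 as counted, and -0.56 with 6 genes at 0 in TCKO set to the bound, since 3 UMIs among so few cells are a high level. Zbp1, a sensor of nucleic acids, held 52.8 against 156 CPM and was in 7 of 13 and 234 of 277 members. Reported miR-155 target genes had a median of 0.13 as counted and 0.18 with the bound over 19 genes, with 3 at least 2-fold higher and 2 lower, beside 0.01 and 0.13 over all genes. TMM scaling, which lowers all genes alike, put the median of the targets at -0.04 as counted. Socs1, a known target that damps cytokine signals, was at 0.74 with an interval of -0.24 to 1.58.

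Transcription factors of effector cells differed in both directions, with 6 of 23 at least 2-fold higher, 2 lower and a median of 0.35. Id2, which holds effector cells in their state, held 337 CPM in TCKO against 886 CPM in WT members, a log2 ratio of -1.39 (interval -1.73 to -1.08). Nr4a1, an early gene of T cell receptor signalling, held 97.5 against 18.8 CPM, with 58.3% of its TCKO UMIs in 1 cell. Dissociation and stress genes, of which Nr4a1 is not a member here, summed to 3049.8 CPM in TCKO and 2202 CPM in WT members, and their part in the difference was not tested. Of 13 trafficking genes 4 were at least 2-fold lower, 3 of them with an interval clear of no change, and none 2-fold higher. Cxcr6, a chemokine receptor of tissue-resident cells, held 248 against 511 CPM. Ly6c2, a surface marker of activated CD8 T cells that is also in the naive and memory list, held 508 against 1448 CPM. Other surface genes of activated cells were higher: Tnfrsf4, a costimulatory receptor, held 406 against 131 CPM, with 68.0% of its UMIs in 1 cell, and Klrg1, of terminal effector cells, 65.0 against 16.7 CPM, with 87.5% in 1 cell.

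**Figure D5:**
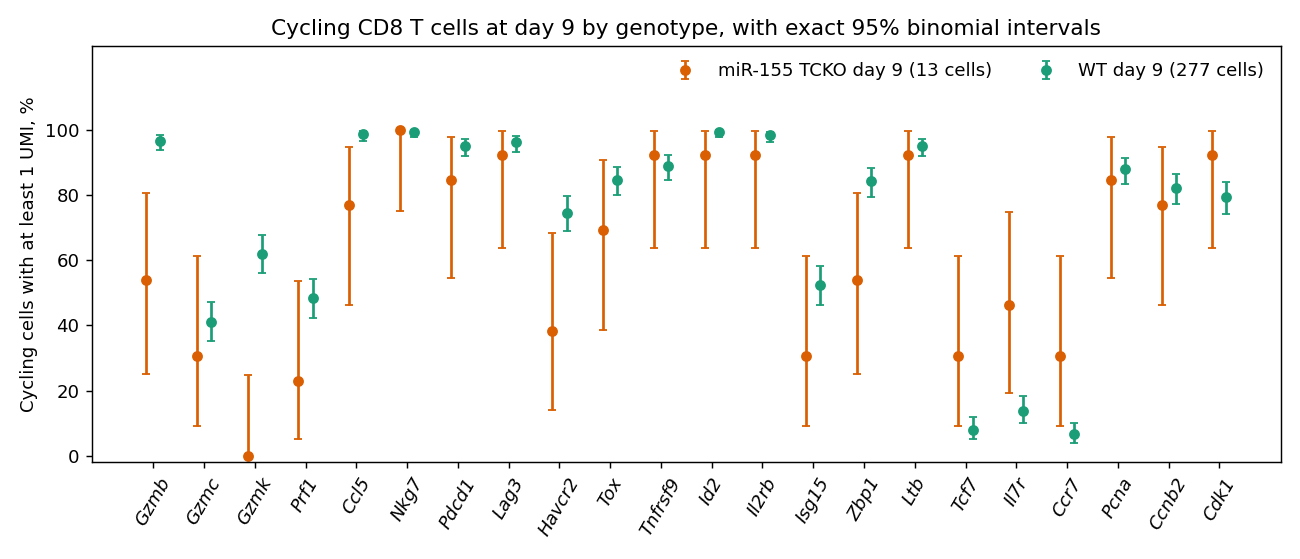
Percent of cycling CD8 T cells of day 9 with at least 1 UMI of each of 22 genes, in miR-155 TCKO (13 cells) and WT (277 cells), with exact 95% binomial intervals. Gzmb was in 53.8% of TCKO and 96.8% of WT members, Gzmk in 0% and 62.1%, and Pdcd1 in 84.6% and 95.3%.

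The 13 TCKO members of day 9 were a mixed set. By falling depth they ran from 35089 to 5477 UMIs. The 2 deepest show the span: the deepest held 83 Gzmb UMIs, 10 Havcr2 UMIs and no Tcf7 or Ccr7, while the next held no Gzmb, 20 Pdcd1, 1 Tcf7, 7 Ccr7, 18 Dapl1 and 267 Xcl1 UMIs. A single member held 1626 of the 1982 Xcl1 UMIs, so the 8049 CPM of this dendritic cell attractant in TCKO against 148 CPM in WT members is mostly the value of 1 cell. Of the 3 members without Cd8a, the 1 with 21298 UMIs held 137 H2-Aa and 155 H2-Ab1 UMIs and no Pdcd1. Another held 2 Cd4, 3 Foxp3, 68 Tnfrsf4 and 14 Klrg1 UMIs, of which Cd4 and Foxp3 are defining transcripts of regulatory T cells, and the last held 2 Cd8b1 and 27 Ly6c2 UMIs. H2-Aa at 10 or more UMIs was not particular to TCKO, as 27 of 277 WT day 9 members had it. With Cd8a required of all CD8 T cells, a setting chosen after the data were seen, the share of cycling cells was 3.68% in TCKO (10 of 272) against 38.7% in WT (275 of 711). Gzmb was then at -1.59, Ccl5 at -2.08 and Tcf7 at 2.74 on the log2 scale for TCKO over WT, whereas Tnfrsf4 was at 0.15 in place of 1.63 and Klrg1 had 0 UMIs in TCKO.

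Between the days in WT, 38 members of day 12 with 470891 UMIs stood against 277 of day 9. Of 9107 genes 6.02% were at least 2-fold higher at day 12 and 10.5% lower, with a median log2 ratio of 0.01 as counted or 0.03 with the bound. The shares with an interval clear of no change were 3.44% and 2.66%. The depth behind a cell at day 12 was less than at day 9, and day and preparation cannot be told apart. Inhibitory receptors were lower at day 12, with 6 of 14 at least 2-fold lower, 5 of them with an interval clear of no change, none 2-fold higher, and a median of -0.83 as counted or -0.50 with 1 gene at 0 set to the bound: Pdcd1 held 181 against 382 CPM, a log2 ratio of -1.08 (interval -1.41 to -0.77), and Lag3 170 against 346 CPM. Of 26 cytotoxic genes 6 were at least 2-fold lower and 4 higher, with a median of 0.05. The receptor genes Klrc1, at 84.9 against 313 CPM, Klrd1, at 274 against 645 CPM, and Klrk1, at 153 against 361 CPM, were among the lower ones, whereas of 6 NK cell markers tested 2 were lower and 1 higher. Gzmb was alike as a sum, at 2368 against 2323 CPM, although 332 of its 1115 UMIs of day 12 were in 1 cell. After thinning to 3000 UMIs, Gzmb was in 78.9% of day 12 members (interval 62.7% to 90.4%) and 88.1% of day 9 members. Gzmk was higher, at 370 against 129 CPM, a log2 ratio of 1.51 (interval 1.27 to 1.75).

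Naive and memory genes were higher in the day 12 members, with 9 of 15 at least 2-fold higher, 1 lower and a median of 1.33. Bcl2, which prevents cell death, held 74.3 against 13.7 CPM, a log2 ratio of 2.44 (interval 1.83 to 3.03), and Slamf6 36.1 against 9.17 CPM. Klf2 held 187 against 53.1 CPM and Cdkn1a, the inhibitor p21 of cyclin-dependent kinases, had a ratio of 1.98. S phase genes had a median of -0.14, with 3 of 39 at least 2-fold lower, and G2 and M phase genes one of 0.10, which TMM scaling turned to just below 0. Metallothionein Mt1, a metal-binding protein, was lower, with a log2 ratio of -2.32. Ifng, the cytokine interferon-gamma, had 1536 UMIs in 38 members at day 12 against 1512 UMIs in 277 at day 9. Of the day 12 UMIs 1098 were in 1 cell and 310 in another, and 18 of 38 cells held any, against 228 of 277 at day 9.

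Cycling CD8 T cells and cycling NK cells of WT day 12, 38 of each, had similar levels of division genes. Both were chosen by the same minimum of UMIs of the rule's division genes, so this likeness is partly set by the choice. Of 4801 genes 5.46% were at least 2-fold higher in CD8 T cells and 6.02% lower, with a median of 0.02. S phase genes had a median log2 ratio of 0.01 with 1 of 36 at least 2-fold higher, and none of 37 G2 and M phase genes was 2-fold different, with a median of 0.41. Effector genes told the lineages apart: Gzmc had 65 UMIs in CD8 T cells and 1479 in NK cells, Gzmd 0 and 534, and Gzma 41 and 2010, while Gzmk had 174 and 0 and Ccl5 a log2 ratio of 1.33. Gzmb was shared, at -0.16 with an interval of -0.27 to -0.04. Pdcd1 had 85 UMIs in CD8 T cells and 0 in NK cells, and Cxcr6, a tissue residency receptor, 167 and 8. NK markers were at least 2-fold lower in 9 of 9 tested, which the rules of these cells partly set.

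Transcripts of other cell types were present in members and in other CD8 T cells. The 8 macrophage markers summed to 1689 CPM in cycling and 3070 CPM in non-cycling CD8 T cells of TCKO day 9, 1707 and 2822 CPM in WT day 9, and 1977 and 3819 CPM in WT day 12, with Adgre1 at 0 in the TCKO members. Against PD-1 positive cells these markers were higher in the cycling cells of TCKO day 9, with macrophage markers at 1689 against 744 CPM, dendritic cell markers at 1299 against 189 CPM, NK cell markers at 638 against 222 CPM and CD4 and regulatory T cell markers at 353 against 192 CPM. Single TCKO members held 87.2% of the Cd74, 93.4% of the H2-Ab1 and 83.1% of the Tyrobp UMIs behind these sums, and their part in the comparisons with PD-1 positive cells was not tested. In WT day 9 macrophage markers were at 1707 against 2683 CPM in that comparison. In cycling and all non-cycling cells CD4 and regulatory T cell markers summed to 353 and 115 CPM in TCKO day 9, to 122 and 181 CPM in WT day 9 and to 248 and 172 CPM in WT day 12. Melanoma markers were at 4 or fewer UMIs in the members of each library, with Mlana, Tyr and Sox10 at 0. Pairs of libraries shared 4 to 16 barcodes and no member barcode. The ribosomal gene Rpl29 held 146 CPM in TCKO and 2234 CPM in WT members of day 9, while Gm10709, a processed pseudogene at chr9:7751725-7752204 that matches it at 476 of 480 bases, held 1105 and 27.5 CPM. The same split stood in non-cycling CD8 T cells, NK cells and macrophage-rule barcodes of both days. In non-cycling CD8 T cells of day 12, Rpl29 held 244 CPM in TCKO and 2461 CPM in WT, and Gm10709 1578 and 16.2 CPM. Reads of this pair cannot be assigned with certainty to either gene. The change ran with genotype at both days and is not particular to cycling cells or to T cells, and its cause was not tested.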

How the data were processed

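Single-cell RNA-seq libraries (10x 3′ tags) were made from sorted CD45-positive tumour cells, 1 library per genotype and day. The authors deposited whole-number UMI counts per gene and barcode, made with Cell Ranger 2.0.2 on mm10 per the submitters' processing notes, from 18783490 to 33902064 UMIs per library. Counts were used as deposited, and 11224 of 11270 barcodes passed the limits of 200 genes and 10% mitochondrial UMIs. Members and gene lists were chosen with earlier results of these data known.

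UMIs were summed over the cells of a library and given as CPM, per 1000000 UMIs of the sum. Levels have exact Poisson intervals, shares Clopper-Pearson intervals and ratios exact conditional intervals, all at 95%. Ratios were taken for genes with at least 20 UMIs over both sums, and 2-fold was the size named. With 1 library per group no test was possible and no p-value is given. The interval code was tested on simulated data. Named were the genes of the rule, in each list the 2 to 4 members with most UMIs in WT day 9 members and those past 2-fold, the 12 highest and 12 lowest genes of a comparison, and Mir155hg; genes of single TCKO cells were chosen after their values were seen. Doublets were not removed. Leaving out the highest Scrublet scores, at 0.8% per 1000 barcodes, is an alternative and took out 1 of 13 members in TCKO day 9, 6 of 277 in WT day 9, 0 of 1 in TCKO day 12 and 2 of 38 in WT day 12; Scrublet's own threshold marked 2 to 11 barcodes a library. T cell receptor V beta genes were not analysed here. Alternatives changed the minimum of the rule, depth, scaling, filters, pseudocount, weights of cells and comparison cells. Python 3.11.15, numpy 2.4.6, scipy 1.17.1, scanpy 1.11.5, matplotlib 3.10.9, R 4.3.3 and, for TMM factors, edgeR 4.0.16 were used. Promoters and the microRNA came from RefSeq tables of GRCm38.p6.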

Additional observations from a re-analysis of the deposited data

Results flagged for a closer look

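For a set of genes the ratio of cycling over non-cycling CD8 T cells was past 2-fold one way in a library and lay on the other side of no change in WT day 9, on the log2 scale. The differences between libraries were not tested.

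Against all non-cycling cells, TCKO day 9 stood above WT day 9 in genes of inhibition and activation. Pdcd1 was at 2.21 in TCKO and -0.17 in WT, Lag3 at 2.30 and -0.58, Cd160 at 2.25 and -0.57, and Tox at 1.03 and -0.34. Icos, a costimulatory receptor, was at 1.21 and -0.89, Tnfrsf4 at 2.20 and -0.21, Klrg1 at 3.64 and -0.52, Xcl1 at 3.91 and -0.79, Nkg7 at 1.10 and -0.31, and Cxcr6 at 1.09 and -0.65. The compared cells differ: 37 of 308 non-cycling cells held Pdcd1 in TCKO, against 341 of 449 in WT. Against PD-1 positive cells, 3 genes stood out: Icos at 1.46 in TCKO and -0.92 in WT, Xcl1 at 1.55 and -0.66, and Gzmc at -2.65 and 1.35. In TCKO 82.0% of the Xcl1 UMIs of members were in 1 cell, and 68 of the 100 Tnfrsf4 UMIs were in 1 member without Cd8a. With Cd8a required Klrg1 had 0 UMIs.

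WT day 12 stood above WT day 9 against all non-cycling cells for Xcl1 at 3.01 and -0.79, Ifng at 4.25 and -0.44, Ccl3 at 2.23 and -0.34, Tnfrsf4 at 1.82 and -0.21, and Klrg1 at 1.88 and -0.52. Against PD-1 positive cells Xcl1 was at 2.46 at day 12 and -0.66 at day 9, Ifng at 3.35 and -0.62, Ccl3 at 1.15 and -0.56, and Tnfrsf4 at 1.04 and -0.41. At day 12 single cells held 71.5% of the Ifng UMIs, 62.9% of the Xcl1 UMIs and 51.3% of the Ccl3 UMIs of members.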

How the results depend on the processing

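No paired analysis was possible because each genotype and day has 1 library and no result comes from a test. The order of the shares of CD8 T cells at day 9 was the same under each setting run. The WT day 9 share was 43.5% with a minimum of 3 UMIs, 33.1% with 4 per 10000 UMIs, 34.4% without barcodes over 30000 UMIs, and 16.0% and 10.3% at 3000 and 2000 UMIs. Thinning to 3000 and 2000 UMIs gave 1.21% and 0.524% in TCKO day 9, and 12.8% and 7.64% in WT day 12, and at 2000 it gave 0% in TCKO day 12. The ratio of TCKO to WT day 9 was then 0.0508 at 2000, and that of WT day 12 to day 9 was 0.799 and 0.742.

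Counts of genes past 2-fold moved mostly with the UMI minimum, which sets how many are tested. With minimums of 5 and 50 UMIs, those lower against non-cycling cells in WT day 9 were 997 and 273. In WT day 12, 1237 and 286 were higher and 1167 and 133 lower, and in TCKO day 9, 1827 and 583 higher and 2034 and 450 lower. Against PD-1 positive cells 892 and 192 were lower in WT day 9, 1210 and 154 higher and 766 and 56 lower in WT day 12, and 1072 and 117 higher and 947 and 42 lower in TCKO day 9. For TCKO over WT 1289 and 392 were higher and 2651 and 917 lower, for WT day 12 over day 9, 1087 and 256 higher and 1798 and 538 lower, and for CD8 over NK cells 893 and 75 higher and 1045 and 101 lower. TMM and median-of-ratios scaling gave 522 and 569 higher against non-cycling cells in TCKO day 9. Adding 2 UMIs gave 206 lower in WT day 12 and 289 in TCKO day 9 against non-cycling cells, 127 lower against PD-1 positive cells in TCKO day 9, 2289 higher and 122 lower for TCKO over WT, where adding 0.5 gave 966 lower, and 1173 higher and 148 lower for WT day 12 over day 9. With the highest cell of each gene left out, chosen after the data were seen, 1744 were lower against non-cycling and 317 against PD-1 positive cells in TCKO day 9, 275 higher and 3120 lower for TCKO over WT, and 294 higher and 1896 lower for WT day 12 over day 9. That setting takes more from the smaller set of cells.

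Signs turned for Gzmd over PD-1 positive cells in WT day 9 without barcodes over 30000 UMIs (-0.0201). For TCKO over WT they turned for the G2 and M phase median without those barcodes (0.0430), the histone median with 2 UMIs added (0.46), and, without the highest cell, the median of cell cycle brakes (-0.10), Klrg1 (-0.58) and Slamf6 (-0.00260). Il7r of WT day 12 over day 9 was at -0.16 without the highest doublet scores, and the cause was not tested. Requiring Cd8a, also chosen after the data were seen, moved no share or count beyond these limits. The number of cells limits TCKO: 13 members give a floor of 12.2 CPM at day 9 and 1 member gives one of 152 CPM at day 12.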
